A study of Homo sapiens with 5 samples.

Results

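Expression of 10 core genes of the transforming growth factor beta (TGF-beta) pathway was compared between MCF10A SAM cells carrying a guide against the JUN promoter and cells carrying a control guide. The members were chosen by name: they are the rows of the count table whose Entrez identifiers correspond to TGFB1, TGFB2, INHBA, TGFBR1, TGFBR2, SMAD2, SMAD3, SMAD4, SMAD7 and SKIL, 10 of 23459 genes. All 10 were found and all 10 had enough counts to be tested. None of them passed the threshold for a difference between the groups with edgeR's quasi-likelihood test after Benjamini-Hochberg adjustment over all tested genes. The secreted ligand TGFB2 had the smallest p-value of the 10 and was lowest in one of the sgJUN#1 libraries, and INHBA was high in a single control library. The one pathway gene outside the 10 that changed past the threshold was THBS1, which fell. The study counts THBS1 among YAP target genes and also reports that JUN expressed from cDNA lowered it.

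MCF10A cells are human mammary epithelial cells, immortalised and grown as a line. SAM cells are derivatives that carry the catalytically dead Cas9 activator dCas9-VP64 and the second activator MCP-p65-HSF1, which a guide RNA brings to a promoter, and the labels state that single clones of them were picked. All 5 libraries shared this background and a medium with horse serum, insulin, hydrocortisone, cholera toxin and EGF. Libraries NTC replicates 1 to 3 had a non-targeting guide as control, and sgJUN#1 replicates 1 and 2 had 1 guide to the JUN promoter. The study describes its sequencing replicates as biological. Its figure legend for this comparison gives n = 2, whereas the labels hold 3 NTC libraries, all of which were used. The labels do not say what separated the replicates (cultures, infections or clones), so p-values measure the spread between these libraries. The labels mention no added TGF-beta.

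Messenger RNA was read at its 3′ end, which gives counts that depend little on transcript length. Totals lay between 2455627 and 4988062 counts, and levels are given as CPM, the counts after TMM scaling of the library totals to the same size. The depth floor of 3 counts, the most that a count of 0 allows, corresponded to 0.601 to 1.22 CPM. Floors and intervals from counts cover counting error only. The targeted gene JUN, a subunit of the transcription factor AP-1, was at 25.03, 36.2 and 9.32 CPM in NTC replicates 1 to 3, against 171.5 and 265.5 CPM in sgJUN#1 replicates 1 and 2. Each sgJUN#1 library exceeded every NTC library, with a log2 fold change of 3.25 (SE 0.484) and an edgeR adjusted p of 0.0733, so the raised level did not pass the threshold of 0.05 over all genes. The adjusted p of JUN ranged from 7.36e-12 to 0.302 over 13 alternative fits and passed in 5 of them. The epithelial keratin KRT5 was present at 152 to 454 CPM, whereas the basal keratin KRT14 did not exceed 3.26 CPM. NTC replicate 2 stood apart from the other NTC libraries for several pathway targets, and sgJUN#1 replicate 1 from replicate 2 for TGFB2 and TGFBR2. NTC replicate 3 was the highest NTC library for 8 of 10 tested receptors outside the members, against 5390 of all 13616 tested genes. The estimates that these libraries moved most are also given without them. The T cell marker CD3E had no count, the fibroblast collagens COL1A2 and COL3A1 did not exceed 1.07 CPM, and the fibroblast list as a whole summed to 180 to 300.1 CPM through PDGFRA and DCN. The leukocyte list summed to 3.26 to 28.4 CPM and the endothelial list to 8.59 to 12.6 CPM.

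TGF-beta ligands are secreted in a latent form and, once released, bind the type II receptor TGFBR2, which activates the type I receptor TGFBR1. The activated receptor phosphorylates SMAD2 and SMAD3, which join SMAD4, enter the nucleus and regulate genes, among them their own inhibitors SMAD7 and SKIL. Activin A, a dimer of the INHBA product, uses different receptors but the same SMAD2 and SMAD3. In mammary epithelium the pathway is known for restraining proliferation and for inducing matrix and mesenchymal genes. AP-1 proteins are known to act with SMAD complexes at some target genes.

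Since JUN binds DNA in AP-1 and related dimers, promoter windows of the members were read for the AP-1 element and for the cyclic AMP response element (CRE). The windows are the 250 bases before annotated starts in RefSeq (GRCh38.p14), with 25 windows for the 10 members. Each motif was searched on both strands, and reads the same on both. No match in the members’ windows overlapped another. The AP-1 element TGANTCA was found in 1 of the 25 windows, at an internal start of SMAD3, against 6.57% of all 35116 windows. The CRE TGACGTCA was found in 1 window, that of SKIL, against 1.65% of all windows. The SMAD palindrome GTCTAGAC was found in none of the members' windows and in 0.182% of all windows. The windows of SMAD3 (chr15:67125492-67125741, plus strand) and SKIL (chr3:170357465-170357714, plus strand) are shown because they alone held a match, with the matched letters in capitals. The matches lay 56 and 54 bases before the start, respectively, and are a description of letters, not of binding.
SMAD3: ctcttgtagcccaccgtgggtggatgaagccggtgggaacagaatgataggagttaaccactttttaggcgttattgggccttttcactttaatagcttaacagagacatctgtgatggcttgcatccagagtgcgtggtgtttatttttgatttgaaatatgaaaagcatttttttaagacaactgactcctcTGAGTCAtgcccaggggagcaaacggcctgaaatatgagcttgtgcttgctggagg
SKIL: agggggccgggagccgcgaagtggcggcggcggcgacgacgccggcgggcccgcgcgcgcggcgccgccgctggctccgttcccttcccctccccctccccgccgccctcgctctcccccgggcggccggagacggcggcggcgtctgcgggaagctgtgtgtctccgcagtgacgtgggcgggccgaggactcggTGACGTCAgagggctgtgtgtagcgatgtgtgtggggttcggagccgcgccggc

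**Figure D1:**
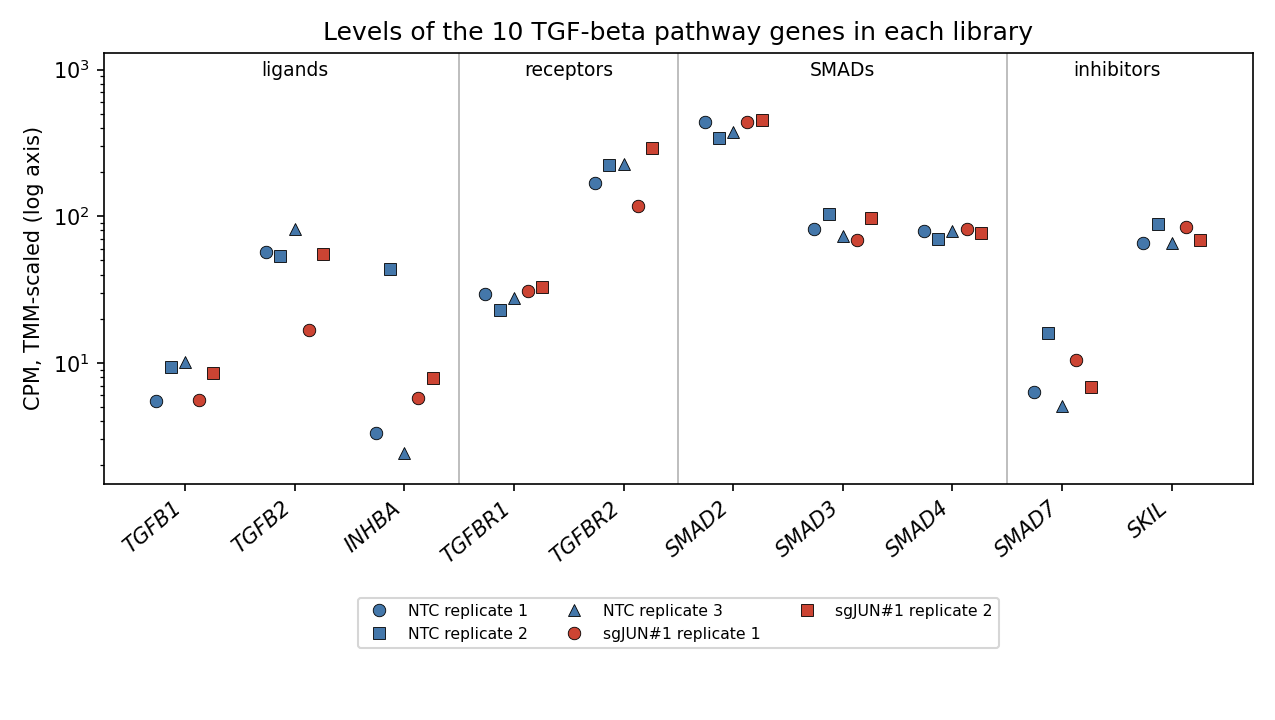
Level of each member (CPM of the TMM-scaled library, log axis) in the 3 NTC libraries (blue) and the 2 sgJUN#1 libraries (red), 1 symbol per library. INHBA is set apart by NTC replicate 2 at 43.96 CPM, TGFB2 by sgJUN#1 replicate 1 at 16.7 CPM, and SMAD2 is the most abundant member in every library.

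In control cells the members spanned a wide range of levels. By their median CPM over the 3 NTC libraries, SMAD2 was first at 377.1, followed by TGFBR2 at 223.9. The ranges of SMAD2, TGFBR2 and the next gene did not overlap. SMAD3, SMAD4, SKIL and TGFB2 came next, with medians of 81.4, 79.0, 65.4 and 56.7 CPM, and each of these overlapped its neighbour in the order. TGFBR1 followed at 27.5 CPM, below the lowest NTC value of TGFB2 and above the highest of TGFB1. TGFB1, SMAD7 and INHBA were the lowest, at 9.36, 6.33 and 3.30 CPM, and their ranges overlapped from one to the next. Because RNA was taken from bulk cells, fewer cells that express a gene and less RNA per cell cannot be told apart.

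The question for each member was whether its level differed when JUN was raised. Of the 10 members, 0 had an edgeR adjusted p under 0.05, against 0.206% of the 13616 tested genes. At an unadjusted p under 0.05 the count in this edgeR fit was also 0, against 8.38% of all tested genes. With DESeq2, limma-voom and edgeR without NTC replicate 2 that count was 1, a ligand each time. Among all 13616 tested genes these fits gave 846, 1147 and 1232. After adjustment DESeq2 called 0 of the 10, against 0.975%. The other alternative fits also called 0 of the 10. Among all genes they called 0.147% with limma-voom, 0.213% with size factors in edgeR, 0.162% with upper quartile scaling and 0.14% with library size alone. Without a filter 0.756% were called, where each library had at least 10 counts 0.152%, and with the replicate block 0.756%. With a library left out, 0.0734%, 0.433% and 0.499% were called without NTC replicates 1, 2 and 3, and 0.191% and 0.147% without sgJUN#1 replicates 1 and 2. Estimates were higher in sgJUN#1 for 5 members and lower for 5, with a median log2 fold change of -0.0014, beside -0.0082 for all tested genes. The 95% interval of the log2 fold change lay within -1 to 1, that is within a doubling or halving, for 6 of the 10 members (TGFBR1, TGFBR2, SMAD2, SMAD3, SMAD4 and SKIL), against 59.4% of all tested genes. For TGFB1, TGFB2, INHBA and SMAD7 the interval reached past a 2-fold change. It did not exclude a 2-fold decrease of TGFB1 or TGFB2, nor a 2-fold change of INHBA or SMAD7 in either direction.

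With all 5 libraries the ligands had the lowest estimates of the 4 groups of members, with a median log2 fold change of -0.86. Without sgJUN#1 replicate 1 their median was -0.21, beside -0.22 for the inhibitors. TGFB2 (Entrez 7042, GRCh37 chromosome 1, 218518678 to 218617961, plus strand), one of the secreted TGF-beta ligands, was at 56.7, 53.3 and 82.1 CPM in NTC replicates 1 to 3, against 16.7 and 55.5 CPM in sgJUN#1 replicates 1 and 2. sgJUN#1 replicate 1 was the lowest library, whereas replicate 2 lay inside the NTC range. The NTC mean was 64.0 ± 15.7 CPM (SD, n = 3) and that of sgJUN#1 was 36.1 ± 27.4 CPM (SD, n = 2). The log2 fold change was -0.86 (SE 0.461, 95% interval -1.93 to 0.20), and edgeR gave an adjusted p of 0.677. The sgJUN#1 libraries differed from each other by 3.32 times. With a pseudocount of 1 CPM, 99.7% of tested genes differed less between them. Without sgJUN#1 replicate 2 the log2 fold change was -1.94 (adjusted p 0.148 with edgeR, the lowest of the 13 alternatives), and without sgJUN#1 replicate 1 it was -0.21, so the size of the estimate rested on which of the pair was kept. TGFB2-AS1, a non-coding gene on the opposite strand that overlaps TGFB2, had 10, 7 and 27 counts in NTC and 2 and 1 counts in sgJUN#1, and reads of this pair may also be shared.

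TGFB1 (Entrez 7040, chromosome 19, 41807492 to 41859827, minus strand), the ligand after which the family is named, was read at low depth, with 20, 23 and 46 counts in NTC and 27 and 24 counts in sgJUN#1. These were 5.50, 9.36 and 10.2 CPM against 5.57 and 8.59 CPM, and both sgJUN#1 libraries lay inside the NTC range. The log2 fold change was -0.27 (SE 0.394, 95% interval -1.15 to 0.61, adjusted p 0.902 with edgeR). The 3′ end of TGFB1 lies within HNRNPUL1 on the opposite strand, which had 281 to 567 counts per library. How strand was treated in the counting is not given in the sources used here, so reads of the neighbour cannot be told apart from those of TGFB1.

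TGFB2 was the more abundant of these ligands in every library. It made up 91.2% of the summed TGFB1 and TGFB2 counts in NTC replicate 1 (95% exact binomial interval 86.7 to 94.5), 85.1% in replicate 2 (78.4 to 90.3) and 88.9% in replicate 3 (85.5 to 91.8). In sgJUN#1 the share was 75.0% in replicate 1 (65.7 to 82.8) and 86.6% in replicate 2 (80.7 to 91.2). sgJUN#1 replicate 1 had the lowest share, and replicate 2 fell within the NTC values. The mean shares were 88.4% ± 3.08 (SD, n = 3) and 80.8% ± 8.20 (SD, n = 2), a difference of -7.59 percentage points with a two-sided exact permutation p of 0.3, where this design can give no p below 0.1.

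INHBA (Entrez 3624, chromosome 7, 41706766 to 41745432, minus strand), which encodes the subunit of activin A, was at 3.30, 43.96 and 2.44 CPM in NTC replicates 1 to 3, against 5.78 and 7.87 CPM in sgJUN#1. NTC replicate 2 was far above every other library, with 108 counts where the other NTC libraries had 12 and 11. Its exact Poisson interval of 36.1 to 53.1 CPM did not meet that of any other library, the highest of which reached 11.9 CPM. Both sgJUN#1 libraries lay between this library and the other NTC libraries. Its log2 fold change, -1.19 (SE 1.304, 95% interval -4.38 to 1.997, adjusted p 0.860 with edgeR), turned without NTC replicate 2 to 1.23 (adjusted p 0.465 with edgeR, the lowest of the 13 alternatives). INHBA-AS1, the antisense gene that overlaps INHBA, had a like profile, with 9, 59 and 9 counts in NTC and 18 and 10 counts in sgJUN#1, and without known strand handling these counts may share reads.

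**Figure D2:**
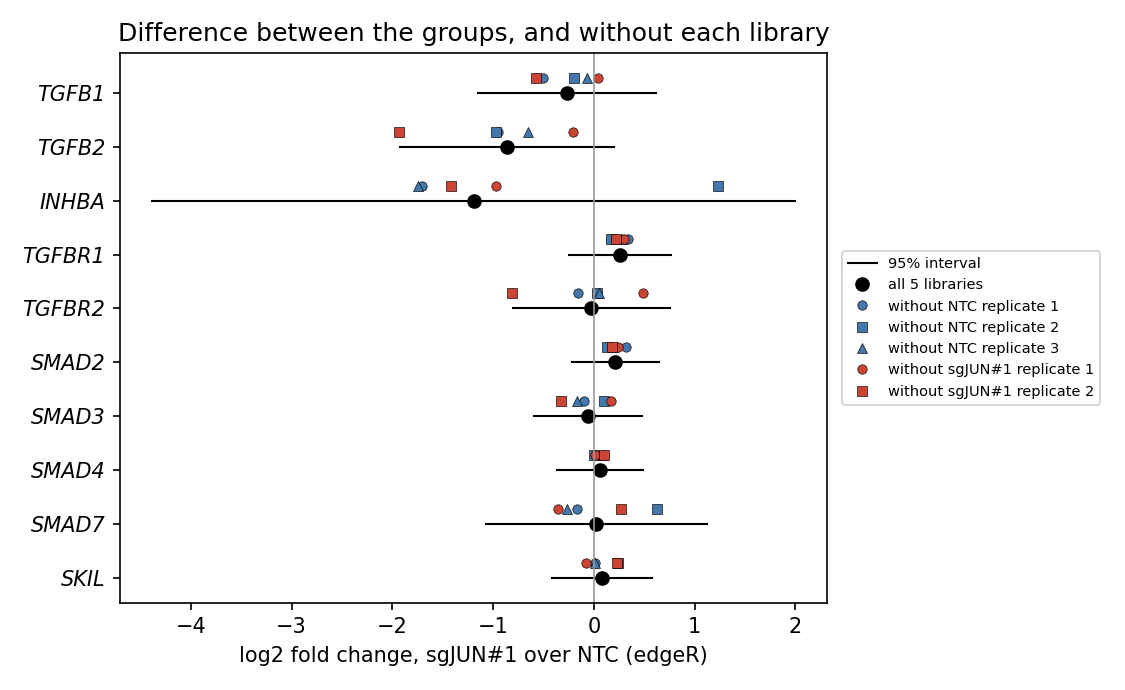
log2 fold change of each member (sgJUN#1 over NTC, edgeR) with its 95% interval, and the estimate when each library was left out. The interval of INHBA, -4.38 to 1.997, is the widest. TGFBR1, SMAD2 and SMAD4 kept estimates above 0 whichever library was left out, SMAD4 at only 0.000117 without NTC replicate 2.

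Both TGF-beta receptors were expressed. TGFBR2 (Entrez 7048, chromosome 3, 30648093 to 30735634, plus strand), the receptor that binds ligand first, was at 168.9, 223.9 and 228.5 CPM in NTC, against 117.9 and 290.2 CPM in sgJUN#1. The sgJUN#1 libraries held both the lowest and the highest value of the 5, 2.46 times apart. The log2 fold change was -0.03 (SE 0.344, 95% interval -0.81 to 0.75, adjusted p 0.991 with edgeR), and with a pseudocount of 1 CPM, 98.7% of tested genes differed less between the sgJUN#1 libraries. TGFB2 and TGFBR2 were thus both lower in sgJUN#1 replicate 1 than in any other library. In sgJUN#1 replicate 2 TGFBR2 was at its highest, whereas TGFB2, at 55.5 CPM, lay inside its NTC range.

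TGFBR1 (Entrez 7046, chromosome 9, 101866320 to 101916474, plus strand), the kinase that phosphorylates SMAD2 and SMAD3, was at 29.4, 22.8 and 27.5 CPM in NTC, against 31.0 and 32.9 CPM in sgJUN#1. It was the only member whose groups did not overlap, 1 of 10, where 25.0% of all tested genes did not overlap in either direction and 12.2% did so with sgJUN#1 higher. The log2 fold change of 0.26 (SE 0.227, 95% interval -0.25 to 0.77) had an edgeR adjusted p of 0.800. An increase of more than 1.70 times lay outside the 95% interval.

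Next came the transcripts of the SMAD proteins that carry the signal to the nucleus. SMAD2 (Entrez 4087, chromosome 18, 45335328 to 45457517, minus strand) was at 442.8, 341.5 and 377.1 CPM in NTC, against 439.4 and 456.5 CPM in sgJUN#1. One sgJUN#1 library lay just above the NTC range and the other just inside it, with a log2 fold change of 0.21 (SE 0.192, 95% interval -0.22 to 0.64, adjusted p 0.811 with edgeR). SMAD4 (Entrez 4089, chromosome 18, 48554898 to 48611415, plus strand), the partner shared with BMP signalling, was at 79.2, 69.6 and 79.0 CPM in NTC, against 81.5 and 76.6 CPM in sgJUN#1. Its log2 fold change was 0.06 (SE 0.189, 95% interval -0.37 to 0.48, adjusted p 0.964 with edgeR). The NTC libraries of SMAD4 differed little, and with a pseudocount of 1 CPM 9.11% of tested genes had a smaller ratio of the highest to the lowest NTC library.

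SMAD3 (Entrez 4088, chromosome 15, 67356101 to 67487511, plus strand) was at 81.4, 104.2 and 73.0 CPM in NTC, against 68.5 and 97.0 CPM in sgJUN#1. Its groups overlapped, with one sgJUN#1 library below all NTC libraries, and the log2 fold change was -0.06 (SE 0.239, 95% interval -0.60 to 0.48, adjusted p 0.970 with edgeR). SMAD3, which held the AP-1 letters at an internal start, was not found to differ, within 95% limits of 0.662 and 1.39 times the NTC level. Counts read at the 3′ end do not separate transcripts by their start, so they do not bear on that window.

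The inhibitors were read at different depths. SMAD7 (Entrez 4092, chromosome 18, 46446223 to 46477335, minus strand), which is induced by TGF-beta and blocks the type I receptor, was at 6.33, 15.9 and 5.102 CPM in NTC, against 10.5 and 6.80 CPM in sgJUN#1, from 19 to 51 counts per library. NTC replicate 2 was the highest library and both sgJUN#1 libraries lay inside the NTC range. The log2 fold change was 0.02 (SE 0.488, 95% interval -1.07 to 1.12, adjusted p 0.993 with edgeR). SKIL (Entrez 6498, chromosome 3, 170075130 to 170114623, plus strand), which encodes the SMAD corepressor SnoN, was at 65.2, 87.9 and 65.4 CPM in NTC, against 84.8 and 68.7 CPM in sgJUN#1. Both sgJUN#1 libraries of SKIL lay inside the NTC range as well. Its log2 fold change was 0.08 (SE 0.221, 95% interval -0.41 to 0.58, adjusted p 0.955 with edgeR).

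NTC replicate 2 stood apart for several genes of the pathway, a comparison chosen after the values were seen. It was at least 2 times both other NTC libraries for 2 of the 10 members, INHBA (13.3 times the higher of them) and SMAD7 (2.51 times), against 1.19% of all tested genes. Among a list of transcriptional targets of TGF-beta, NTC replicate 2 was at least 2 times both other NTC libraries for 4 of 16 tested genes, against the same 1.19%. These were the actin-binding TAGLN at 4.65 times, fibronectin FN1 at 4.59 times, the transcription factor SNAI2 at 2.43 times and the chromatin protein HMGA2 at 4.40 times. By the looser measure of being the highest NTC library, NTC replicate 2 came first for 4 members (INHBA, SMAD3, SMAD7 and SKIL) and for 10 of the 16 targets, against 29.3% of all tested genes. The 19 listed targets summed to 4766, 8720 and 3710 CPM in NTC replicates 1 to 3 and to 6086 and 8114 CPM in sgJUN#1 replicates 1 and 2. This library also had the smallest total, 2455627 counts, and the part of depth in these values was not tested.

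**Figure D3:**
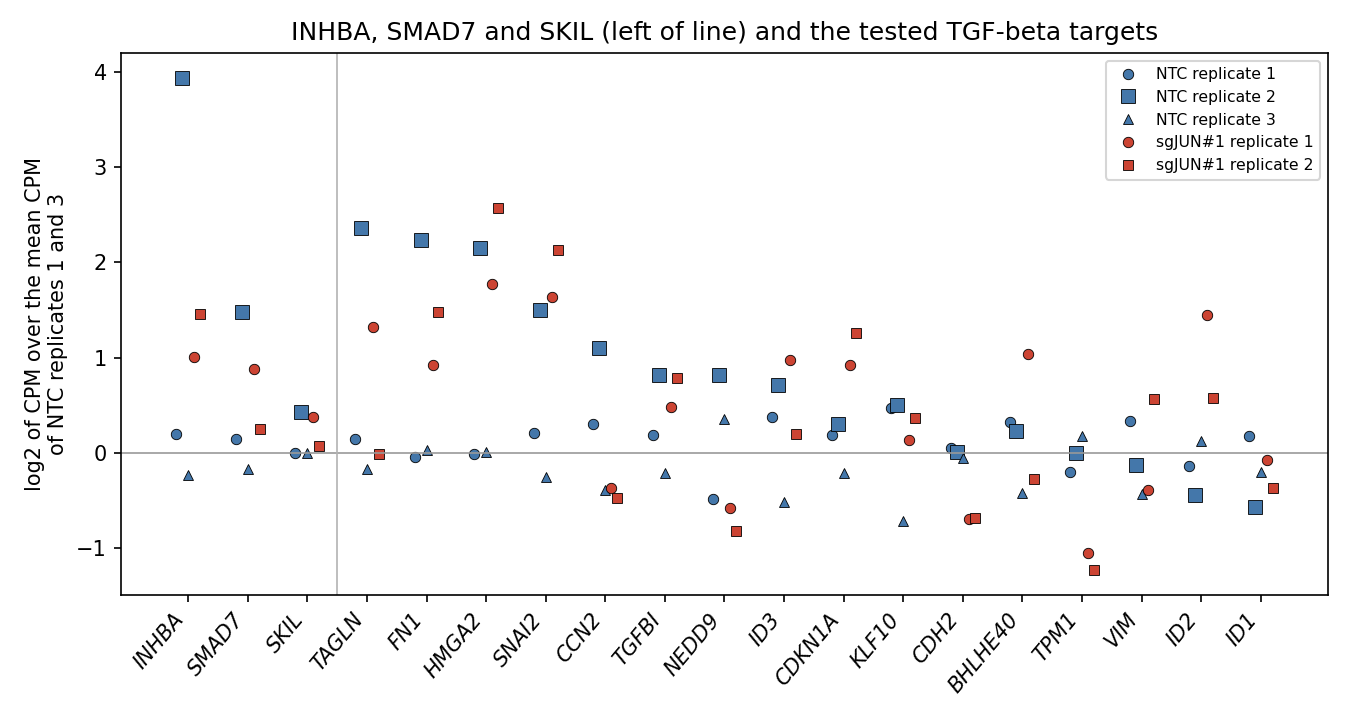
Level of INHBA, SMAD7 and SKIL (left of the line) and of the tested transcriptional targets of TGF-beta (right) in each library, relative to the mean of NTC replicates 1 and 3 (log2 axis as labelled), for the 3 NTC (blue) and 2 sgJUN#1 (red) libraries. NTC replicate 2 is the highest NTC library for 10 of the 16 tested targets.

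The other genes of the pathway were taken from 6 lists with 71 genes, of which 57 were tested. With edgeR, 1 of the 57 had an adjusted p under 0.05, against 0.206% of all tested genes, and it was lower in sgJUN#1. Their median log2 fold change was -0.05, beside -0.0082 for all tested genes. Groups did not overlap for 17 of the 57, against 25.0% of all tested genes.

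Among 14 other ligands, 7 were tested and 0 passed the threshold, with a median log2 fold change of -0.06. BMP4, a bone morphogenetic protein, was at 10.2, 5.29 and 11.5 CPM in NTC, against 1.86 and 1.07 CPM in sgJUN#1. Both sgJUN#1 libraries were below all NTC libraries, from 9 and 3 counts, with a log2 fold change of -2.55 (SE 0.511) and an edgeR adjusted p of 0.115. DESeq2 gave an adjusted p of 0.0209 and edgeR without a count filter 0.00598, within a range of 0.00598 to 0.481 over the alternatives. Named after their values were seen, LEFTY1, an inhibitor of NODAL, was the most abundant ligand of this list at 240.4 to 421.7 CPM, and NODAL itself had at most 8 counts. A protein-coding gene model of the same strand overlaps LEFTY1, so its reads may be shared.

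Of 11 other receptors 10 were tested, 0 passed and their median log2 fold change was -0.37. In 7 of the 10 the estimate was lower in sgJUN#1, as for 6947 of all 13616 tested genes. The median of the receptors was -0.17 without NTC replicate 3 and -0.12 without sgJUN#1 replicate 1. It was -0.13 with the replicate block, to whose group estimate NTC replicate 3 adds nothing. ACVR1, a type I receptor for BMPs, was the one with groups that did not overlap, at 10.5, 15.1 and 14.9 CPM in NTC, against 15.5 and 21.8 CPM in sgJUN#1. Its log2 fold change was 0.46 (SE 0.293, adjusted p 0.731 with edgeR).

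All 5 genes of the list of other SMADs were tested and 0 passed, with a median log2 fold change of -0.12. The inhibitory SMAD6, which restrains BMP signalling, was at 6.88, 5.29 and 6.88 CPM in NTC, against 2.48 and 3.58 CPM in sgJUN#1, with a log2 fold change of -1.11 (SE 0.409, adjusted p 0.491 with edgeR). Its groups did not overlap, and the counts were 10 to 31 per library. ZFYVE9, the membrane anchor that presents SMAD2 and SMAD3 to the receptor, also did not overlap, at -0.25 on the log2 fold change scale (adjusted p 0.793 with edgeR).

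Of 12 other inhibitors 10 were tested and 0 passed, with a median log2 fold change of 0.01. SMURF1, a ubiquitin ligase that acts on receptors and SMADs, was at 39.9, 57.8 and 72.3 CPM in NTC, against 124.0 and 76.9 CPM in sgJUN#1, with a log2 fold change of 0.83 (SE 0.290, adjusted p 0.459 with edgeR). Both sgJUN#1 libraries were above all NTC libraries, and without sgJUN#1 replicate 1 the log2 fold change was 0.44. The corepressors TGIF2, TGIF1 and SKI had log2 fold changes of -0.50, -0.49 and -0.27, for which edgeR gave adjusted p-values of 0.748, 0.669 and 0.789, and groups that did not overlap.

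Latency and activation of TGF-beta was the list with the one change past the threshold. THBS1 (Entrez 7057, chromosome 15, 39873280 to 39891667, plus strand), a matrix glycoprotein known to release TGF-beta from its latent form, was at 222.8, 280.0 and 178.8 CPM in NTC, against 23.3 and 26.5 CPM in sgJUN#1. The groups were far apart. THBS1 fell by 3.19 on the log2 scale (SE 0.268) with an edgeR adjusted p of 0.00112, and it passed the threshold in all 13 alternative fits, from -3.34 to -3.01. The 3′ end of THBS1 lies within FSIP1 on the opposite strand, which had 8 to 22 counts per library. ITGB8, an integrin subunit that also activates latent TGF-beta, was at 39.6, 39.5 and 129.1 CPM in NTC, against 29.7 and 27.5 CPM in sgJUN#1. Its groups did not overlap, with a log2 fold change of -1.29 (SE 0.549, adjusted p 0.594 with edgeR). NTC replicate 3 was far above the other NTC libraries, and the log2 fold change of ITGB8 was -0.46 without it. The replicate block, to whose group estimate that library adds nothing, also gave -0.46. The remaining 7 tested genes of the list, latent TGF-beta binding proteins, integrin chains and FURIN, did not pass, and the list's median log2 fold change was -0.16.

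**Figure D4:**
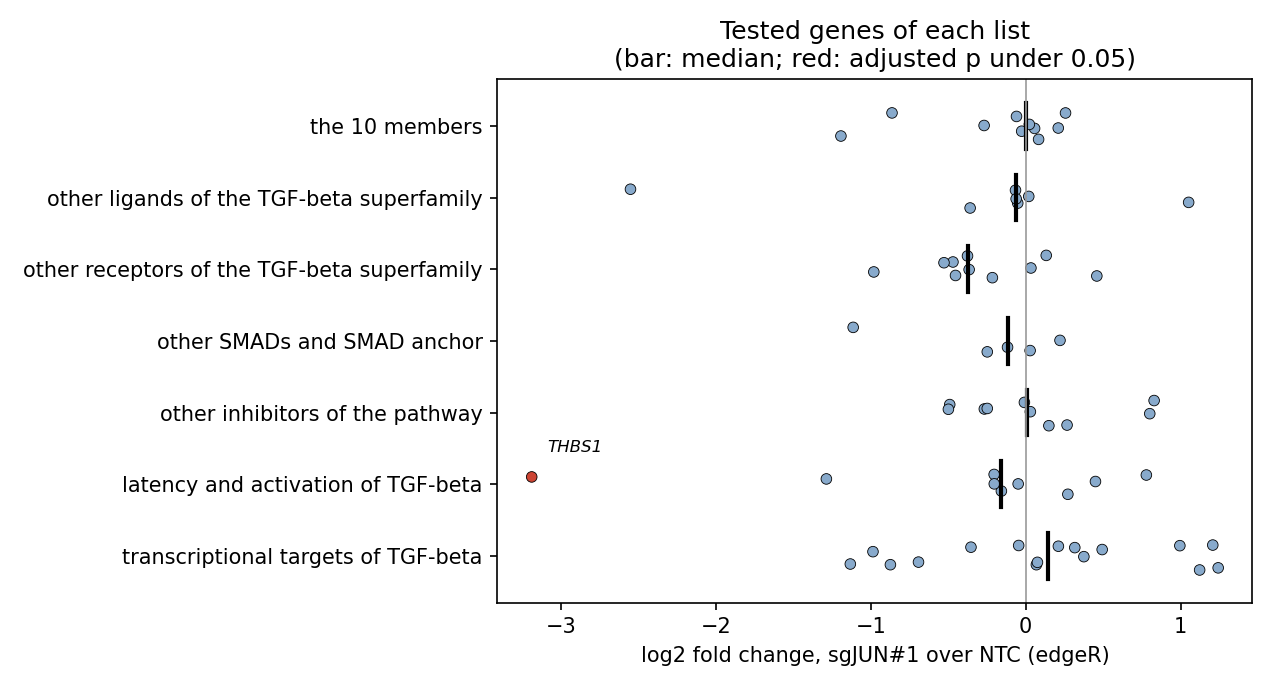
log2 fold change (sgJUN#1 over NTC, edgeR) of each of the 10 members and each tested gene in the 6 lists of other pathway genes, with the median of each list as a bar. The only gene past the adjusted threshold is THBS1 in the list of latency and activation, at -3.19.

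Of 19 transcriptional targets of TGF-beta 16 were tested and 0 passed, with 3 higher and 4 lower at an unadjusted p under 0.05, against 8.38% of all tested genes in either direction, and a median log2 fold change of 0.14. SNAI2, a transcription factor of epithelial plasticity, was at 26.96, 65.5 and 19.5 CPM in NTC, against 72.0 and 101.6 CPM in sgJUN#1 (log2 fold change 1.24, SE 0.466, adjusted p 0.522 with edgeR). ID2, an inhibitor of basic helix-loop-helix factors, was at 8.53, 6.92 and 10.2 CPM in NTC, against 25.6 and 14.0 CPM in sgJUN#1 (1.21, SE 0.333, adjusted p 0.294 with edgeR), and the log2 fold change of ID2 was 0.69 without sgJUN#1 replicate 1. CDKN1A, the cell cycle inhibitor p21, was at 107.0, 116.0 and 81.2 CPM in NTC, against 178.5 and 225.4 CPM in sgJUN#1 (1.00, SE 0.220, adjusted p 0.176 with edgeR). For SNAI2, ID2 and CDKN1A each sgJUN#1 library exceeded every NTC library. For the tropomyosin TPM1 each sgJUN#1 library was below every NTC library. It was at 74.5, 85.9 and 96.7 CPM in NTC, against 41.5 and 36.5 CPM in sgJUN#1 (-1.13, SE 0.215, adjusted p 0.106 with edgeR). DESeq2 gave CDKN1A and TPM1 adjusted p-values of 0.0322 and 0.00933, where the alternatives ranged from 0.0319 to 0.780 and from 0.00933 to 0.604.

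Without NTC replicate 2 the median log2 fold change of the 16 targets was 0.61, beside -0.0064 for all tested genes, and 2 targets passed the edgeR threshold, against 0.433% of all tested genes. These were SNAI2 at 1.90 (adjusted p 0.0370 with edgeR) and HMGA2 at 2.22 (adjusted p 0.0202 with edgeR). NTC replicate 2 was singled out after many of these targets, SNAI2 and HMGA2 among them, were seen to be high in it. Higher estimates without that library follow from this choice and are no separate evidence of a difference. Over the alternatives the adjusted p ranged from 0.0370 to 0.999 for SNAI2 and from 0.0202 to 0.9999 for HMGA2. The members' median without that library was 0.11, with 8 of 10 estimates higher and 0 past the threshold. With a library left out, the median of the targets ranged from -0.0087 without NTC replicate 3 to 0.61 without NTC replicate 2.

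The 3 tested genes whose profiles over the 5 libraries were nearest to that of TGFB2 were LINGO1, CRB1 and FOXO1, at root mean square distances of 0.158, 0.175 and 0.176 on the log2 CPM scale. FOXO1, a transcription factor restrained by insulin signalling, was at 340.8, 364.3 and 610.4 CPM in NTC, against 142.4 and 333.5 CPM in sgJUN#1. As with TGFB2, NTC replicate 3 was the highest library and sgJUN#1 replicate 1 the lowest, which follows from choosing FOXO1 by its profile.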

How the data were processed

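Libraries were made by the authors with the QuantSeq FWD kit for 3′ ends. The submitters' processing notes name cutadapt 4.2, Bowtie2 2.3.5.1 and hg19, and the study's methods name countOverlaps in R. The authors deposited raw, whole-number counts for each gene. The annotation and the handling of strand, repeated alignments and molecular identifiers are not given in the sources used here. Symbols came from RefSeq (GRCh38.p14, names and promoter windows) for 23308 of 23459 genes and positions from GENCODE 44 on GRCh37, the build of hg19.

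Groups and replicate numbers came from sample titles. Counts were tested with edgeR 4.0.16 in R 4.3.3 (quasi-likelihood F test, TMM, filterByExpr, robust, group only). The filter kept 13616 genes. P-values were adjusted by Benjamini-Hochberg over them, with a threshold of 0.05. The SE is the log2 fold change over the square root of F. The scripts were tested on simulated data. The 13 alternative fits used DESeq2 1.42.0, limma-voom 3.58.1, other scalings and filters, a replicate block, and each library left out. Genes outside the 10 members were named where the adjusted p passed, or as up to 4 genes per list with the largest changes among those of at least 5 CPM whose groups did not overlap, and as the 3 genes nearest to TGFB2. Members, lists and rules were chosen with earlier results of these data known. One gene of the list of targets is not reported here and was left out of that list.

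Replicate numbers shared by both groups were checked as pairs: the deviations of same-numbered libraries correlated at 0.0146, so they were not taken as pairs.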

Additional observations from a re-analysis of the deposited data

How the results depend on the processing

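No member passed the threshold in any of the 13 alternative fits, and the lowest edgeR, DESeq2 or limma adjusted p of a member was 0.148. Over all genes 28 passed, and 136 with DESeq2, 148 without a filter, 18 where every library had at least 10 counts, and 10 to 68 when 1 library was left out (10 without NTC replicate 1, 59 without NTC replicate 2, 68 without NTC replicate 3). With the replicate block 103 genes passed, 0 of them members. Same-numbered libraries were not taken as pairs, but the correlation of 0.0146 cannot show that they were unpaired. Of the 57 tested genes of the 6 lists 1 passed, and 4 with DESeq2 or without a filter (THBS1, BMP4, CDKN1A and TPM1) and 1 to 3 with 1 library left out, where 3 (THBS1, SNAI2 and HMGA2) passed without NTC replicate 2. The count of members whose groups do not overlap, 1, ranged from 1 to 5 with 1 library left out, which can only keep or raise it, an alternative added after seeing the data, where 37% to 51.0% of all tested genes did not overlap. The difference in the TGFB2 share ranged from -13.4 to -1.79 percentage points.

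Estimates changed sign in 6 members. With a library left out, the log2 fold change of TGFB1 ranged from -0.58 to 0.040 (above 0 without sgJUN#1 replicate 1), that of INHBA from -1.75 to 1.23 (above 0 without NTC replicate 2), that of TGFBR2 from -0.81 to 0.49 (above 0 without NTC replicate 2 or 3 or sgJUN#1 replicate 1), that of SMAD3 from -0.33 to 0.17 (above 0 without NTC replicate 2 or sgJUN#1 replicate 1), that of SMAD7 from -0.36 to 0.63 (below 0 without NTC replicate 1 or 3 or sgJUN#1 replicate 1) and that of SKIL from -0.081 to 0.24 (below 0 without sgJUN#1 replicate 1). INHBA was 0.19 with limma-voom, and SMAD7 was -0.0091 with DESeq2, -9.5e-05 with library size alone and -0.20 with the replicate block. TGFB2, TGFBR1, SMAD2 and SMAD4 kept their direction in all 13, though SMAD4 was at only 0.000117 without NTC replicate 2. The cause was not tested. A lone sgJUN#1 library is assumed to vary like the NTC group.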

Other observations

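Some further pathway genes are given here as values, chosen after they were seen. PMEPA1, a TGF-beta target that restrains the pathway by binding SMADs, was at 47.3, 141.2 and 39.5 CPM in NTC replicates 1 to 3, against 178.1 and 82.3 CPM in sgJUN#1 replicates 1 and 2 (log2 fold change 0.80, SE 0.607, adjusted p 0.780 with edgeR). NTC replicate 2 was again the highest NTC library, and the log2 fold change of PMEPA1 was 1.59 without it and 0.13 without sgJUN#1 replicate 1. The neural cadherin CDH2, a marker of mesenchymal state, was at 77.6, 75.3 and 72.1 CPM in NTC, against 46.2 and 46.5 CPM in sgJUN#1 (-0.69, SE 0.193, adjusted p 0.302 with edgeR). Its groups did not overlap, as for 25.0% of all tested genes.

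The co-receptor TGFBR3, which presents TGFB2 to the signalling receptors, was at 56.7, 33.4 and 97.8 CPM in NTC, against 21.7 and 43.3 CPM in sgJUN#1 (-0.98, SE 0.471, adjusted p 0.645 with edgeR). NTC replicate 3 was its highest library and sgJUN#1 replicate 1 its lowest, as for TGFB2, and the log2 fold change of TGFBR3 was -0.52 without the former and -0.54 without the latter. Leaving libraries out for these genes was added after seeing the data.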
